A study of Mus musculus with 8 samples.

Results

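Chromatin accessibility was examined at the interferon-induced gene families of the mouse, in marrow progenitors with and without acute myeloid leukemia (AML). A region belonged to the set when the gene nearest to its centre, within 100 kb, had a symbol beginning with Ifi, Ifit, Oas, Gbp, Iigp, Irgm or Slfn, or was Isg15, Mx1, Mx2, Rsad2 or Usp18. This rule took 300 of 160978 regions. They were nearest to 69 of the 74 family genes in the annotation, and the genes lay in 23 clusters, 22 of which held a region. The rule itself uses gene names and positions alone.

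The assay was ATAC-seq, which uses a transposase to tag open DNA, on sorted marrow cells that carry cKit and lack lymphoid and erythroid markers. The labels give 4 AML libraries, of which 2 are URE-delta/+;Tet2+/- and 2 are URE-delta/+;Tet2-/-. They give 4 normal libraries, 1 each of URE-delta/+;Tet2+/+, URE+/+;Tet2+/-, URE+/+;Tet2-/- and URE+/+;Tet2+/+, from age-matched mice. URE is a distal enhancer of Spi1, the gene of the myeloid transcription factor PU.1, and Tet2 encodes an enzyme that oxidises methylated cytosine in DNA. No normal library carried both alleles and only 1 carried the URE deletion, so the effects of leukemia and of carrying both alleles cannot be told apart. By their titles the AML libraries came from lanes 6 and 7, as did 2 of the normal ones, and the 2 normal libraries with Tet2 loss came from lane 8, which held no AML library.

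All values come from 1 comparison made by the authors, of leukemic over non-leukemic cells of low PU.1. It gives 1 log2 fold change, 1 log2 average abundance and 1 adjusted p-value per region, and values per library were not used, so the spread between mice cannot be stated. The sources used here do not say which libraries entered either side. A region is said to have risen or fallen in leukemic cells when its adjusted p was under 0.001, the threshold of the authors' own lists; 0.05 is used as a looser threshold and is named wherever it is. The Spi1 gene, whose enhancer was deleted, had 5 of its 14 regions fall and 0 rise, beside 1.22% of all regions that fell, and its lowest log2 fold change, from the authors' deposited table, was -7.3. Other regions around Spi1 were not compared, so these values are not set against a local level. Tet2, the other altered gene, had 0 of its 15 regions rise or fall, with a lowest value of -1.32 (adjusted p 0.122, from the authors' deposited table). At gene ends, the log2 average abundance (from the authors' deposited table) was 3.26 for Kit, 2.4 for Mpo, 1.66 for Cd34 and 1.64 for Gata2, the 4 progenitor genes listed. It was -0.48 and 1.41 for the lymphoid genes Cd3e and Cd79a, so Cd79a lay near the lower progenitor genes. The erythroid gene Klf1 had -0.36 and Hbb-bt had -0.47 in that table of the authors. In sorted bulk cells, fewer cells of a type and less open chromatin per cell cannot be told apart.

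Interferons are secreted when a cell detects viral or bacterial nucleic acid, and they act through paired receptors, Janus kinases and STAT proteins. The STAT and IRF factors that reach the nucleus bind short promoter elements, among them the interferon-stimulated response element, and switch on a large group of target genes. Many of these targets were made by local duplication and still lie side by side as families of GTPases, nucleic acid sensors, RNA-binding proteins and membrane proteins. How reads that match several near-identical copies were counted is not stated, so values of single members of such families are uncertain. In marrow, interferon drives stem cells out of rest, and PU.1 can bind next to IRF proteins at composite elements in myeloid and lymphoid cells.

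The promoters show what the families share in sequence. The RefSeq promoter table of GRCm38.p6 held 64 windows, each from 250 bases before to 50 bases after a transcription start, for 56 of the 74 family genes. The core of the response element, GAAA, any 2 bases, GAAA on either strand, was found in 34 of the 64 family windows (53.1%), against 1131 of all 32851 windows in the table (3.44%). By gene, 32 of 56 family genes (57.1%) and 3.99% of all 27025 genes had a window with it. Every one of the 5 Gbp genes of chromosome 3 with a window carried the core, as did 8 of 10 Ifi200 genes, 5 of 6 Ifit genes and 4 of 6 Oas genes. It was found at 2 of 5 genes of the main Ifitm cluster and 3 of 9 Slfn genes, and at neither of the 2 Ifi44 genes.

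Below are the 5 promoters of genes whose gene-end region lay over a window in the table and had an adjusted p under 0.05, ordered by that p, and 3 whose region had one of the highest adjusted p. Capitals mark the response element core, in either orientation, and each window is written 5′ to 3′ on the strand of its gene. Where a gene had several windows at the region, the one with the most cores is shown. The windows are Ifitm2 at chr7:140955912-140956211 (minus strand), Gbp3 at chr3:142559794-142560093 (plus), Isg15 at chr4:156200769-156201068 (minus), Ifih1 at chr2:62646206-62646505 (minus) and Slfn4 at chr11:83174936-83175235 (plus). For comparison stand Gbp2 at chr3:142620413-142620712 (plus), Slfn8 at chr11:83020673-83020972 (minus) and Ifit1bl2 at chr19:34640694-34640993 (minus).
Ifitm2: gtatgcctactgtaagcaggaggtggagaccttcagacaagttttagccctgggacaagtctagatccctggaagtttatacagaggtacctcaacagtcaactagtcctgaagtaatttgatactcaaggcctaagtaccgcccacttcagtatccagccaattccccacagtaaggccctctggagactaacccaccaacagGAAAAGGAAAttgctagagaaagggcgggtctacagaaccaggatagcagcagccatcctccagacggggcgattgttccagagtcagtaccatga
Gbp3: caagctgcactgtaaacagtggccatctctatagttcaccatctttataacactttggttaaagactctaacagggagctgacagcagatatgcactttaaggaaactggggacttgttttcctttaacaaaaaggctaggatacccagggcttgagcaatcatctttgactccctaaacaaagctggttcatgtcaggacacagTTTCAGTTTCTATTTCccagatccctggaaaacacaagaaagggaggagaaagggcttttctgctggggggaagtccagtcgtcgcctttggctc
Isg15: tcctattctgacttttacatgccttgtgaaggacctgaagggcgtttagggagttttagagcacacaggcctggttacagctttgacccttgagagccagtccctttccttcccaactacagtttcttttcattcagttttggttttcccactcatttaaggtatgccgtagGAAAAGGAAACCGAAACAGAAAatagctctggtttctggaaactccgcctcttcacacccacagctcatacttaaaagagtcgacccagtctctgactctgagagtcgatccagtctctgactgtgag
Ifih1: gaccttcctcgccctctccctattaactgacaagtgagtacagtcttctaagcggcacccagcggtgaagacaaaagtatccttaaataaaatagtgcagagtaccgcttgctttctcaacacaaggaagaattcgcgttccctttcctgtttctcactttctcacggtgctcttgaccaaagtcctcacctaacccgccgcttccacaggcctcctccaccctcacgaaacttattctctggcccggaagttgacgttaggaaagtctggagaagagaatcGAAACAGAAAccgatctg
Slfn4: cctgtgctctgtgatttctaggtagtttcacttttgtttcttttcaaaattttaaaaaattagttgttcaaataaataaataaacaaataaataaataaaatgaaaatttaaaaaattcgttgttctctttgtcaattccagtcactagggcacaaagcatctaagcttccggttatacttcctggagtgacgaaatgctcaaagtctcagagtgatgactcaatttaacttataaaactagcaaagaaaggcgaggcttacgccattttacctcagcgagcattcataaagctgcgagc
Gbp2: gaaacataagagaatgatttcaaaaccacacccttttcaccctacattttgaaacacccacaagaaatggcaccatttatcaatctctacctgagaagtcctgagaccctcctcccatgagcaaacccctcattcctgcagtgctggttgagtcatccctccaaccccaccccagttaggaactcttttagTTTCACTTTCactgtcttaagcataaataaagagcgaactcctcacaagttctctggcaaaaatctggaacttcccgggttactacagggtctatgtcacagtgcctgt
Slfn8: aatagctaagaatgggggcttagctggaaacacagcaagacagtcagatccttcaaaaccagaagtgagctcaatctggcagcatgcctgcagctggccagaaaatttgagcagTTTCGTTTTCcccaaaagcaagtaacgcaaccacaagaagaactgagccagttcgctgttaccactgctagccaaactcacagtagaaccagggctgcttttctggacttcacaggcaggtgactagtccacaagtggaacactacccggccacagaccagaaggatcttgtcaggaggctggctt
Ifit1bl2: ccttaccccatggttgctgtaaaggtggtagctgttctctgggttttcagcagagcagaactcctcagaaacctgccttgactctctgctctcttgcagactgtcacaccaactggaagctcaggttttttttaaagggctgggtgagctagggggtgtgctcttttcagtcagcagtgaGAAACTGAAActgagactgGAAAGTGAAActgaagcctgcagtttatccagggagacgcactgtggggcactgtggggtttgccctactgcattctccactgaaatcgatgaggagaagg

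The promoters differ in how many cores they hold and where. Isg15 has 3 overlapping cores in 1 run of 22 letters that begins 78 bases before its start. Ifit1bl2 has 2 separate cores, at 70 and 51 bases before the start, and Gbp3 has 2 overlapping ones at 45 and 39 bases before it. Ifitm2, Gbp2 and Slfn8 have 1 each, at 46, 59 and 136 bases before the start. In Ifih1 the core begins at base 33 of the transcribed part, and the Slfn4 window holds none at the 2-base spacing. The Slfn4 window does hold TTTC, 1 base, TTTC, which is a match when a spacing of 1 to 3 bases is allowed. These matches describe letters in a window and say nothing of binding.

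The authors' deposited table gives the region at the Isg15 start a log2 fold change of 1.12 with an adjusted p of 0.0255, the one at Gbp3 1.46 (adjusted p 0.0140) and the one at Slfn4, without a core, 1.30 (adjusted p 0.0416). Lower values were listed at Ifitm2, -1.33 (adjusted p 0.00794), and Ifih1, -0.71 (adjusted p 0.0307), all from the authors' deposited table. At the Gbp2, Slfn8 and Ifit1bl2 promoters, which each hold a core, the values in the authors' deposited table were -0.24, -0.05 and 0.00, each with an adjusted p of 1. The 8 promoters were picked by these adjusted p, so that called and near-zero values both occur was set by the choice. The region shown for Ifit1bl2 also overlaps the promoter window of Ifit1, which holds 2 cores. The other promoter window of Ifit1bl2 holds no core, and the region on it, chr19:34629787-34629947, stood at -1.90 (adjusted p 0.0142, from the authors' deposited table).

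Both signs also occurred over all family promoters. A window with the core was overlapped by 31 member regions, of which 14 had a log2 fold change above 0, with a median of -0.22. A window without it was overlapped by 18, of which 6 lay above 0, with a median of -0.56. At the looser threshold of 0.05, 2 regions were called higher and 2 lower on windows with the core, and 1 higher and 1 lower on windows without. Those are 6.45% each way with the core and 5.56% each way without. Over the promoters of all genes, 9.01% were called higher and 11.7% lower with the core, and 8.97% higher and 9.01% lower without. Over the promoters of all genes the medians were 0.10 for 477 regions with the core and 0.19 for 12514 without. No difference between these groups was tested.

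**Figure D1:**
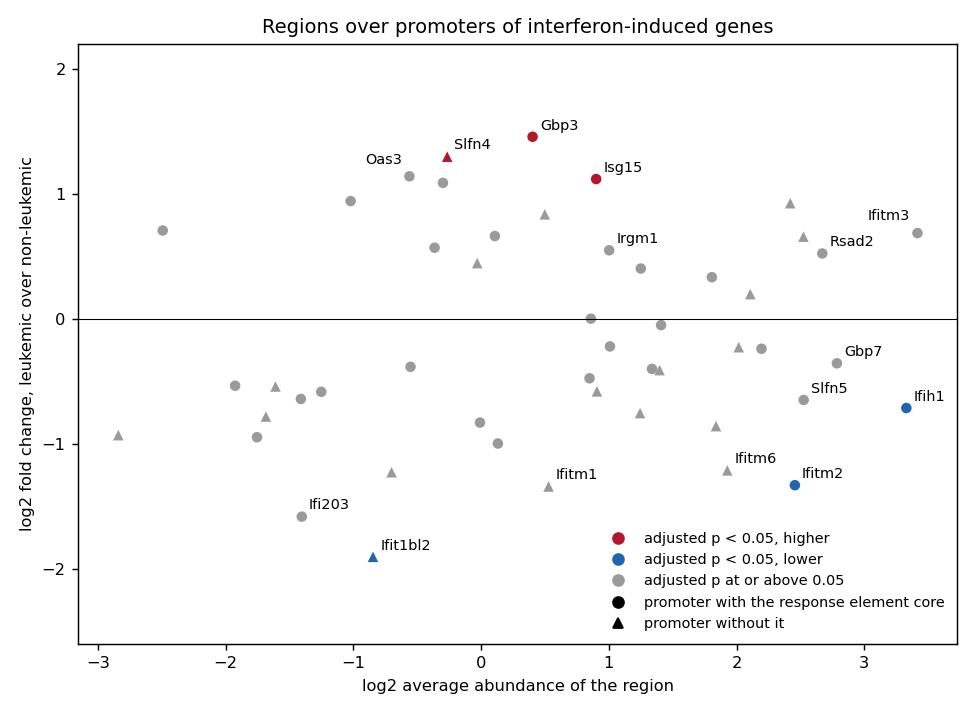
The log2 fold change (leukemic over non-leukemic) of the 49 member regions that overlap a family promoter is plotted against their log2 average abundance, both from the authors' deposited table. Circles are promoters with the response element core and triangles those without it. Both shapes spread above and below 0, with 3 regions called higher and 3 lower at an adjusted p under 0.05.

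Other elements were less common. The gamma-activated site core, TTC, any 3 bases, GAA, was in 14.1% of family windows and 8.3% of all windows. The ETS-IRF composite core, GGAA, any 2 bases, GAAA, at which PU.1 and an IRF protein can bind together, was in 5 family windows (7.81%), against 2.72% of all windows. The PU.1 core GAGGAAGT was in 4 family windows (6.25%), against 3.2% of all. In 1 family window the composite core overlapped the response element core, and in 1 the gamma-activated site core did; the PU.1 core overlapped neither the composite nor the response element core in any. With both GAAA words 1 to 3 bases apart, the response element share was 57.8% in family windows and 8.61% in all.

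Across the 300 regions, few changed. Just 1 region rose in leukemic cells and 0 fell, which is 0.333% and 0% of the members, where 1.24% of all regions rose and 1.22% fell. At the looser threshold of 0.05, 16 regions (5.33%) were called higher and 23 (7.67%) lower, beside 7.98% and 9.21% of all regions. At a stricter threshold of 0.0001 the 1 region that rose was still called, beside 0.387% of all regions. The median log2 fold change was -0.13, with quartiles of -0.79 and 0.55, and 133 members (44.3%) lay above 0. Over all regions the median was 0.02, the quartiles were -0.71 and 0.60, and 50.6% lay above 0. At each of these thresholds the share of members called lay below that of all regions; the difference was not tested.

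Abundance bears on how often a region can be called, and members were much like the rest, with a median log2 average abundance of -1.10 beside -1.17 over all regions. Among the 154 members at or above that overall median, 12 (7.79%) were called higher and 19 (12.3%) lower at 0.05, beside 13.4% and 16.3% of all such regions. Among the marker genes, the end of the progenitor gene Cd34 fell, at -2.48 (adjusted p 0.000124, from the authors' deposited table). The authors' deposited table also lists -2.22 at the erythroid gene Hbb-bt (adjusted p 0.0155), -1.72 at the mature myeloid gene Itgam (adjusted p 0.0230) and -1.26 at Csf1r, of the same cells (adjusted p 0.0238). Siglech, a gene of plasmacytoid dendritic cells, stood at -1.44 (adjusted p 0.0301, from the authors' deposited table). Called lower at 0.05 were 1 of 4 progenitor genes, Hbb-bt, 2 of 3 mature myeloid genes and 1 of 3 plasmacytoid dendritic genes; Tcf4, of the last list, had no gene-end region. Their part in the results below was not tested.

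By position, the members were described by whether they lay at gene ends, inside genes or between them, with no test. Gene ends, taken as centres at most 1 kb from an end of a gene, held 86 members (28.7%) with a median of -0.22 on the log2 scale. The same class held 15.5% of all regions, with a median of 0.19. Gene interiors held 123 members (41%) with a median of -0.24, and the 91 intergenic members (30.3%) had a median of 0.15. Over all regions those medians were -0.02 and -0.03. Of the calls at 0.05, 4 higher and 3 lower were at gene ends, 7 higher and 14 lower in interiors, and 5 higher and 6 lower in intergenic positions. At gene ends these are 4.65% higher and 3.49% lower, beside 9.79% and 8.42% of all regions there. In interiors they are 5.69% and 11.4%, beside 7.97% and 9.39%, and in intergenic positions 5.49% and 6.59%, beside 7.1% and 9.3%.

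**Figure D2:**
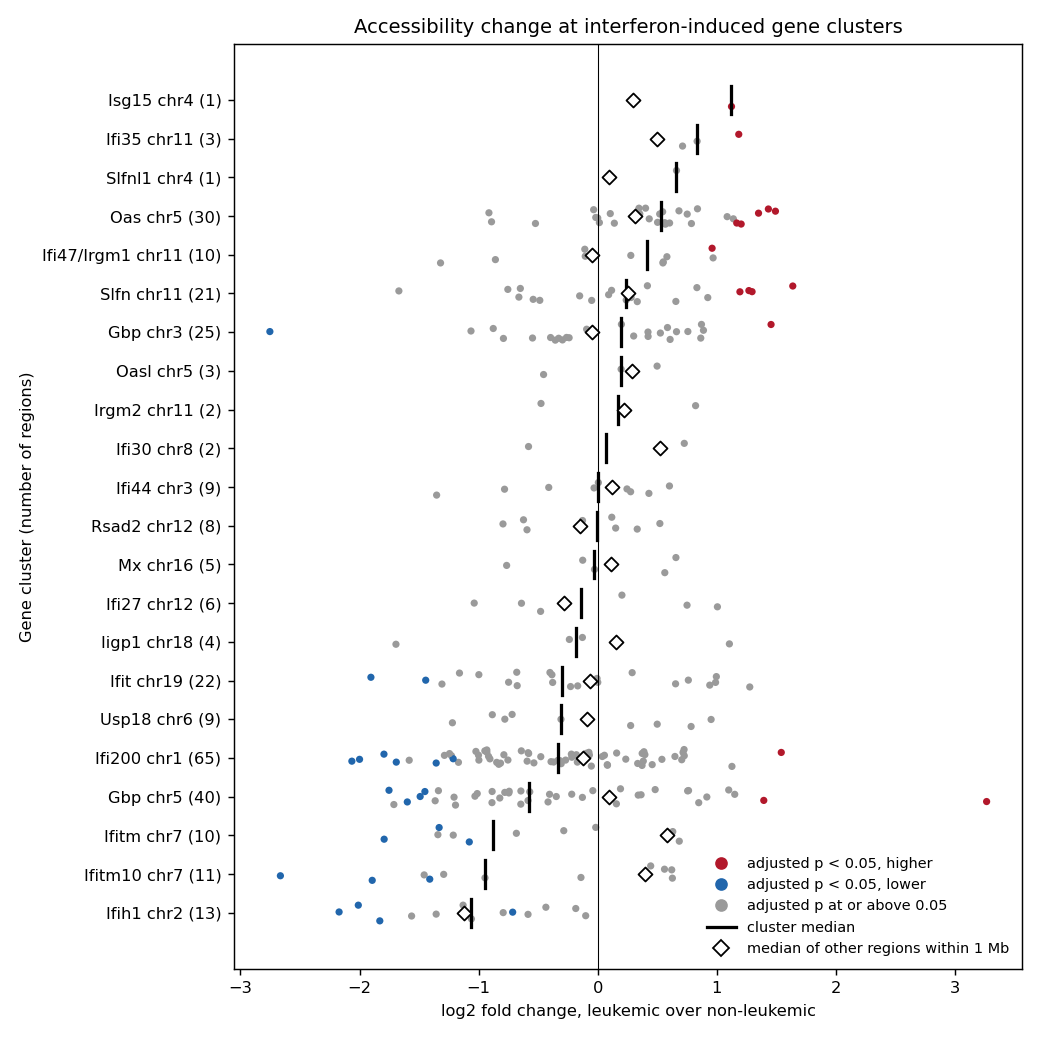
Each point is 1 of the 300 member regions, placed by its log2 fold change (leukemic over non-leukemic, from the authors' deposited table) and grouped by gene cluster; vertical jitter has no meaning. The black bar is the cluster median and the diamond the median of other regions within 1 Mb. The Gbp cluster of chromosome 5 and both Ifitm clusters lie left of their diamonds, and Ifih1 lies on its diamond near -1.1.

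The guanylate-binding proteins, large GTPases that coat and break the vacuoles of intracellular pathogens, supplied the only region that rose. It lies at chr5:105305517-105306621, between Gbp6 and the pseudogene Gbp11 and 10.2 kb from Gbp6. Its log2 fold change was 3.27, with an adjusted p of 5.06e-05 and a log2 average abundance of -1.21, in the authors' deposited table. The abundance is close to the overall median, so the region was not strongly open on average. How open it was in leukemic cells alone cannot be read from that average.

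The region that rose stood against the run of its cluster. The chromosome 5 cluster of Gbp8, Gbp9, Gbp4, Gbp10, Gbp6 and Gbp11 had 40 regions, of which 13 lay above 0, with a median of -0.58. The 188 other regions within 1 Mb had a median of 0.10, as did those within 5 Mb. The gene medians were -0.52 for Gbp8, -0.56 for Gbp9, -0.66 for Gbp4, -0.58 for Gbp10 and -0.43 for Gbp6, and only Gbp11, at 0.19, lay above 0. At 0.05, 2 regions of the cluster (5%) were called higher and 4 (10%) lower, near the 7.98% and 9.21% of all regions.

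Both higher calls lay at Gbp6, and the 4 lower ones at Gbp9, Gbp4 and Gbp10. Inside Gbp6, the region at chr5:105293188-105294070 stood at 1.40 (adjusted p 0.0159, from the authors' deposited table). Beside Gbp10, the region at chr5:105244481-105245040 stood at -1.75 (adjusted p 0.00788, from the authors' deposited table). Within Gbp10, chr5:105235880-105236326 stood at -1.60 (adjusted p 0.0273, from the authors' deposited table). Those within Gbp9 and beside Gbp4 stood at -1.49 (adjusted p 0.0155) and -1.45 (adjusted p 0.0404, from the authors' deposited table). At the end of Gbp9, the most abundant region of the cluster stood at -0.78 (adjusted p 0.275, from the authors' deposited table).

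The second Gbp cluster, on chromosome 3, was more mixed. Its 25 regions had a median of 0.20, beside -0.05 for 161 others within 1 Mb, and 13 lay above 0. Gbp5 had all 6 of its regions above 0, from 0.20 to 0.76 in the authors' deposited table, and none was called at 0.05. Gbp7 had 5 of 6 below 0. The lowest value of all 300 members was inside Gbp2, at chr3:142630316-142630729, with a log2 fold change of -2.75 and an adjusted p of 0.00129 in the authors' deposited table. It missed the authors' threshold by little, while the Gbp2 promoter region was listed at -0.24.

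**Figure D3:**
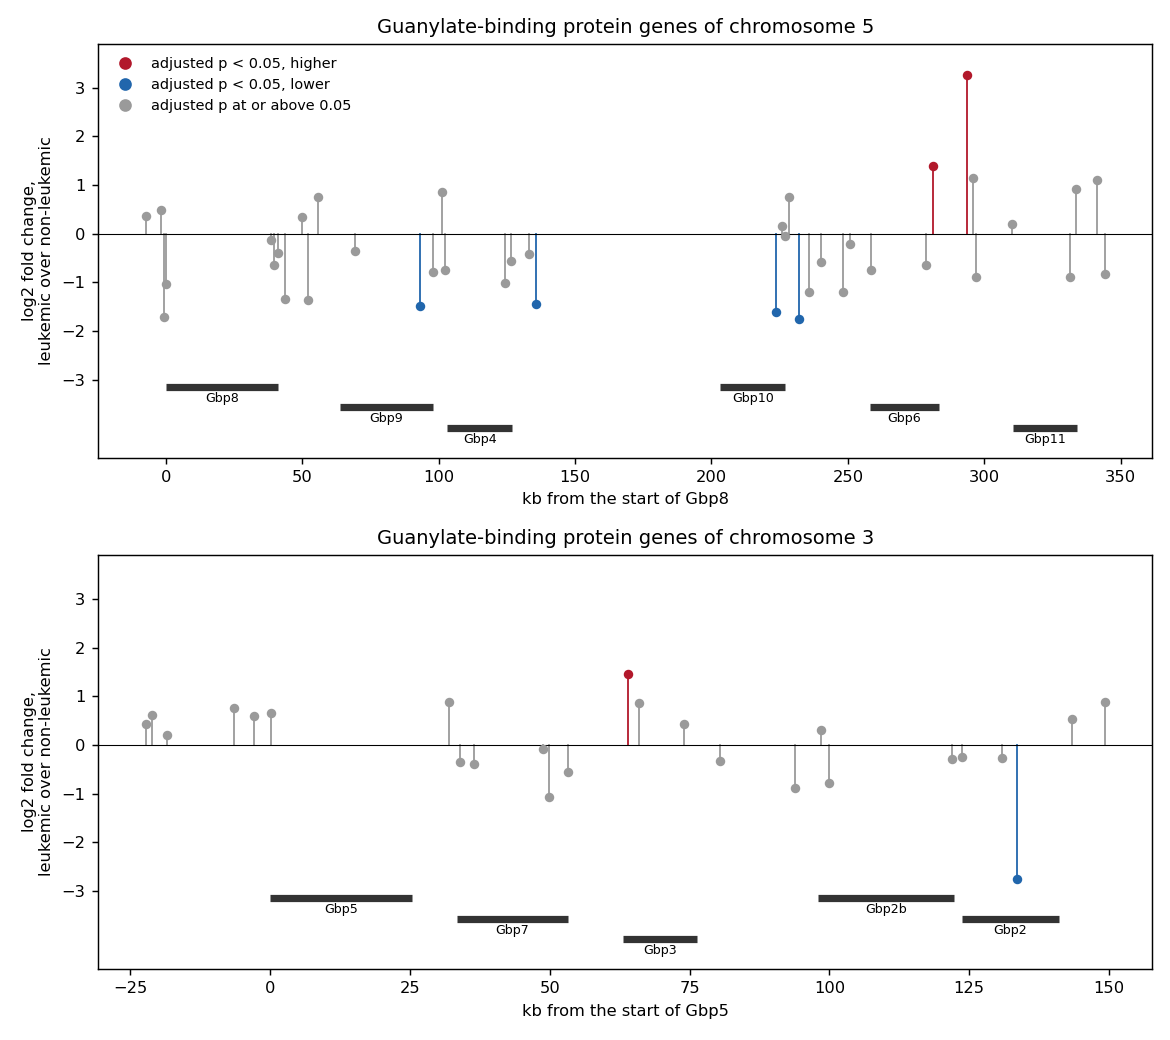
Log2 fold changes (leukemic over non-leukemic, from the authors' deposited table) of member regions are drawn along the chromosome 5 Gbp cluster (top) and the chromosome 3 Gbp cluster (bottom), in kb from the first gene; bars show gene extents. On chromosome 5 the region at 3.27 stands past Gbp6 while most others lie below 0. On chromosome 3 the lowest region, at -2.75, is inside Gbp2.

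The smaller GTPase families showed little. Irgm1 and Ifi47, immunity-related GTPases of chromosome 11, had 10 regions with a median of 0.41, beside -0.05 within 1 Mb. Irgm1 had 3 of 3 above 0, from 0.55 to 0.58 in the authors' deposited table. Inside Ifi47 a region stood at 0.96 (adjusted p 0.0365, from the authors' deposited table), the only call at 0.05 among the 10. That makes 10% called higher and 0% lower, beside 7.98% and 9.21% of all regions. Mx1 and Mx2, dynamin-like antiviral GTPases that the annotation lists as transcribed pseudogenes, had 5 regions with a median of -0.03. Iigp1 had 4 regions with a median of -0.18 and Irgm2 had 2 with a median of 0.17, and none of these was called at 0.05.

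The Ifi200 genes, whose proteins bind DNA and include sensors of cytosolic and nuclear DNA, formed the largest cluster. Their 65 regions on chromosome 1 had a median of -0.33, with 21 above 0, beside -0.12 for 169 others within 1 Mb. At 0.05, 1 region (1.54%) was called higher and 6 (9.23%) lower, beside 7.98% and 9.21% of all regions, so the share of lower calls was that of regions in general. The 6 lay at Ifi209, with 2, and at Ifi202b, Ifi203, Ifi208 and Ifi204. Inside Ifi209, chr1:173633953-173635268 stood at -1.79 (adjusted p 0.00954, from the authors' deposited table). Inside Ifi202b, chr1:173977551-173977907 stood at -2.06 (adjusted p 0.0101, from the authors' deposited table).

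At the end of Ifi204, the most abundant region of the cluster stood at -1.21 (adjusted p 0.0362, from the authors' deposited table), with a log2 abundance of 1.40. Near Ifi214 the single higher call stood at 1.54 (adjusted p 0.0198, from the authors' deposited table). Ifi205 had 4 of 4 regions below 0, and Ifi213 and Ifi214 had medians of 0.08 and 0.06.

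A lower value than any of these lay within this cluster, between Ifi202b and Ifi205, but outside the rule. The region chr1:174004411-174005040 is nearest to the pseudogene Gm18445, and its nearest protein-coding gene is Ifi205. Its log2 fold change was -4.06 (adjusted p 3.07e-05, from the authors' deposited table), below every member. Aim2, the DNA sensor gene of the same protein family next to the cluster, had 2 regions that fell, at -2.97 (adjusted p 6.84e-05) and -2.45 (adjusted p 0.000412, from the authors' deposited table). The region near Gm18445 was named after its value was seen.

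**Figure D4:**
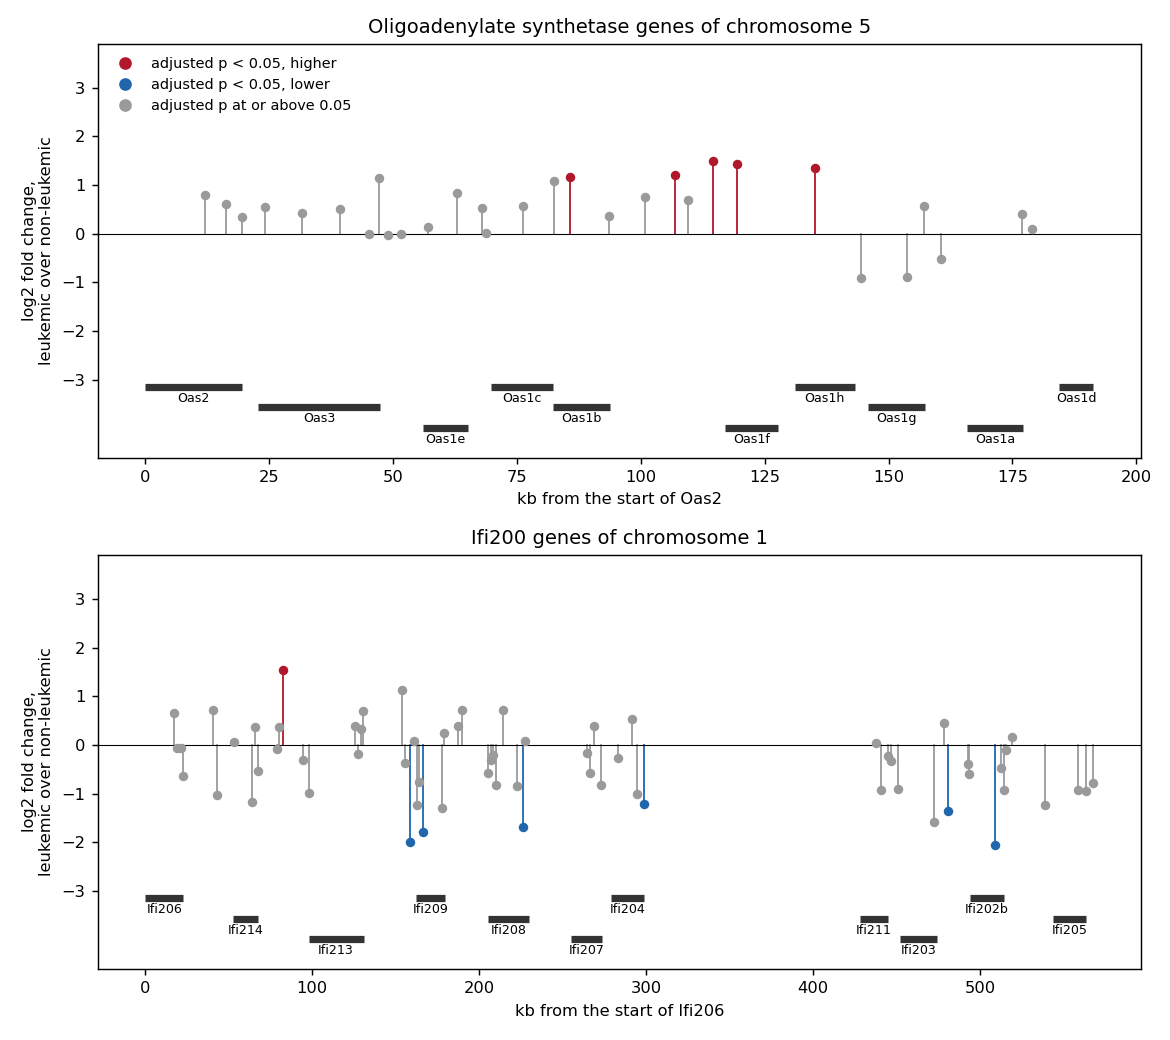
Log2 fold changes (leukemic over non-leukemic, from the authors' deposited table) of member regions are drawn along the Oas cluster (top) and the Ifi200 cluster (bottom), in kb from the first gene; bars show gene extents. The 5 Oas calls lie in 1 run at Oas1b, Oas1f and Oas1h and all point up. The 6 lower Ifi200 calls are spread from Ifi209 to Ifi202b.

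The Oas genes were the most uniformly positive of the clusters with over 10 regions. Some of their products sense double-stranded RNA and make the oligoadenylates that activate RNase L. Of 30 regions on chromosome 5, 25 lay above 0, with a median of 0.53. The neighbourhood leaned the same way: 232 others within 1 Mb had a median of 0.31, with 59.9% above 0. At 0.05, 5 regions (16.7%) were called higher and 0 lower, beside 7.98% and 9.21% of all regions, and none rose at 0.001.

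The 5 calls formed a run of neighbouring genes. Inside Oas1f, chr5:120849644-120850046 stood at 1.44 (adjusted p 0.00793, from the authors' deposited table). Ahead of Oas1f, regions stood at 1.49 (adjusted p 0.0240) and 1.21 (adjusted p 0.0354, from the authors' deposited table). Those inside Oas1b and Oas1h stood at 1.17 (adjusted p 0.0177) and 1.35 (adjusted p 0.0224, from the authors' deposited table). The annotation lists Oas1b as a transcribed pseudogene. The Oas3 promoter region had 1.14 (adjusted p 0.0532, from the authors' deposited table), and the most abundant region of the cluster, inside Oas3, had 0.00 (adjusted p of 1). Oas1g was the exception, with a median of -0.52 over 3 regions. Oasl2, an Oas-like gene in a separate cluster, had 3 regions with a median of 0.20 and none called.

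Ifih1, which encodes a cytosolic sensor of long double-stranded RNA, had 13 of 13 regions below 0, with a median of -1.06. That is close to its surroundings: the 88 other regions within 1 Mb had a median of -1.12, with 1.14% above 0, and the median within 5 Mb was -1.12. At 0.05, 4 of its regions (30.8%) were called lower, beside 9.21% of all regions. The promoter region, at chr2:62645343-62646701, stood at -0.71 (adjusted p 0.0307) with a log2 abundance of 3.33 in the authors' deposited table, and the lowest, inside the gene, at -2.17 (adjusted p 0.0242). The values at Ifih1 therefore cannot be told apart from a lower level along that part of chromosome 2.

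The Ifit genes, whose proteins bind viral RNA with unmethylated ends, had 22 regions on chromosome 19 with a median of -0.30, beside -0.07 within 1 Mb, and 8 lay above 0. At 0.05, 0 were called higher and 2 (9.09%) lower, beside 9.21% of all regions called lower. Both lay inside Ifit1bl2, at -1.44 (adjusted p 0.0110) and, on the promoter window without a core, -1.90 (adjusted p 0.0142, from the authors' deposited table). The Ifit2 and Ifit3 promoter regions stood at -0.23 (adjusted p 0.952) and -1.0 (adjusted p 0.256, from the authors' deposited table). Ifit3 had its other 2 regions at 1.28 and 1.00 in the authors' deposited table, so the values within this cluster went both ways.

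The Schlafen genes, which restrain cell growth and translation and are known from T cells and stem cells, had 21 regions on chromosome 11 with a median of 0.24, beside 0.26 for 219 others within 1 Mb. At 0.05, 4 (19%) were called higher, each at a different gene, beside 7.98% of all regions, and 0 lower. They stood at 1.64 for Slfn9 (adjusted p 0.0194), 1.30 for Slfn4 (adjusted p 0.0416), 1.27 for Slfn5 (adjusted p 0.0421) and 1.20 for Slfn2 (adjusted p 0.0327, from the authors' deposited table). The most abundant regions were at the Slfn5 and Slfn3 promoters, at -0.65 (adjusted p 0.262) and 0.66 (adjusted p 0.129, from the authors' deposited table). Slfn1 had both regions below 0, with -0.75 and -1.67 from the authors' deposited table.

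The Ifitm genes, which encode membrane proteins that block the fusion of viruses, stood furthest below their surroundings. The main cluster on chromosome 7 had 10 regions with a median of -0.88, 2 of them above 0. The 206 other regions within 1 Mb had a median of 0.58 and 74.3% lay above 0, so the cluster lay 1.46 below its neighbourhood on the log2 scale. At 0.05, 3 regions (30%) were called lower, beside 9.21% of all regions, at Ifitm2, Ifitm1 and Ifitm6. They stood at -1.33 (adjusted p 0.00794), -1.79 (adjusted p 0.0299) and -1.08 (adjusted p 0.0295, from the authors' deposited table).

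Ifitm3 had a value of the other sign. Its only region, on the promoter at chr7:141008352-141012038, was the most abundant of the 300 members, and stood at 0.69 (adjusted p 0.0647, from the authors' deposited table). The promoter regions of Ifitm1 and Ifitm6 stood at -1.34 (adjusted p 0.0549) and -1.21 (adjusted p 0.0591, from the authors' deposited table). Just outside the rule, the region chr7:141006393-141007356 is nearest to the noncoding gene Gm33504, with Ifitm3 as its nearest protein-coding gene. Its log2 fold change was 2.33 (adjusted p 0.000220, from the authors' deposited table), so it rose at the authors' threshold. It was named after its value was seen.

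Ifitm10 lies apart on the same chromosome and had 11 regions with a median of -0.95, beside 0.40 within 1 Mb. Inside the gene, chr7:142344853-142345018 stood at -2.66 (adjusted p 0.00117) and chr7:142341906-142342543 at -1.89 (adjusted p 0.00164, from the authors' deposited table). These and the Gbp2 region were the members nearest to the authors' threshold on the lower side. A further region of Ifitm10 was called at 0.05, at -1.41 (adjusted p 0.0413, from the authors' deposited table). At that threshold 3 of the 11 Ifitm10 regions (27.3%) were called lower and 0 higher, beside 9.21% and 7.98% of all regions.

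The remaining genes stand alone or in pairs. Isg15, a ubiquitin-like modifier, had 1 region, the one on its promoter at 1.12. Usp18, the protease that removes Isg15 from proteins and damps the interferon receptor, had 9 regions with a median of -0.31 and none called at 0.05. Rsad2, which encodes the antiviral enzyme viperin, had 8 regions with a median of 0.00. Its promoter region stood at 0.52 (adjusted p 0.182) with a log2 abundance of 2.67 in the authors' deposited table. Ifi35 had 3 of 3 regions above 0, the highest at 1.19 (adjusted p 0.0130, from the authors' deposited table). The Ifi44 pair and the 3 Ifi27 genes had medians of 0.01 and -0.14 over 9 and 6 regions, and Ifi30, a lysosomal thiol reductase gene, had 2 regions with a median of 0.07. Oasl1, Oas1d, Ifitm5, Ifitm7 and Ifit1 were nearest to no region. The Ifit1 promoter window was still overlapped by a member region, the one at 0.00 shown for Ifit1bl2.

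Other genes of the interferon pathway, from a list by role of 64 genes, had 398 regions at 57 genes. At 0.001, 7 regions rose (1.76%) and 10 fell (2.51%), beside 1.24% and 1.22% of all regions, and the median log2 fold change was -0.22. At 0.05, 35 (8.79%) were called higher and 58 (14.6%) lower, beside 7.98% and 9.21% of all regions. The share was near the background for higher calls and above it for lower ones, with no test of the list. The lower calls were uneven, from 0% of the regions of inhibitors to 22.5% of the 71 regions of IRF genes other than Irf9. Of those 71 regions, 41 were at Irf2 alone.

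Among the receptors, 5 regions rose (8.33%) and 1 fell (1.67%) of 60, beside 1.24% and 1.22% of all regions. At 0.05 the calls were more even, with 15 higher (25%) and 11 lower (18.3%), beside 7.98% and 9.21% of all regions. Inside Ifngr1, a chain of the interferon gamma receptor, 2 regions rose, at 3.05 (adjusted p 3.29e-05) and 2.38 (adjusted p 0.000125, from the authors' deposited table). At Ifnlr1, a chain of the interferon lambda receptor, 3 rose, the highest at 3.21 (adjusted p 2.62e-05), and 1 fell, at -2.17 (adjusted p 0.000471), all from the authors' deposited table. Ifngr1 had lower regions as well, the lowest at -2.57 (adjusted p 0.00104, from the authors' deposited table), and the median over its 20 regions was -0.02. The promoter region of Ifngr1 itself stood at -0.23 (adjusted p 0.483, from the authors' deposited table).

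Downstream of the receptors, the kinases Jak1, Jak2 and Tyk2 had 42 regions with a median of -0.57, and none of them rose or fell. Irf2, a factor that opposes Irf1 at response elements, had 4 regions that fell, the lowest at -3.23 (adjusted p 0.000253, from the authors' deposited table). Its 41 regions had a median of -0.95, beside 0.12 for others within 1 Mb. Irf8, a myeloid partner of PU.1, had 1 that rose, at 2.86 (adjusted p 5.27e-05, from the authors' deposited table). The list of IRF genes other than Irf9, with Irf2 and Irf8 included, had 71 regions. Of these, 1 rose (1.41%) and 4 fell (5.63%), beside 1.24% and 1.22% of all regions. All of these calls are the ones at Irf8 and Irf2.

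The sensors and adaptors had 73 regions, of which 1 rose (1.37%) and 2 fell (2.74%), beside 1.24% and 1.22% of all regions. Both that fell were at Aim2. The one that rose was inside Ddx58, an RNA sensor gene, at 2.49 (adjusted p 0.000307, from the authors' deposited table). The inhibitors had 26 regions with 0 risen and 0 fallen. At 0.05, 5 (19.2%) were called higher and 0 lower, beside 7.98% and 9.21% of all regions. Of these 5, 4 were at Socs3, from 0.66 to 1.32 in the authors' deposited table. The other interferon-induced genes had 115 regions, of which 0 rose and 3 (2.61%) fell, beside 1.24% and 1.22% of all regions. The 3 that fell were at Samhd1, -3.38 (adjusted p 2.32e-06), Rtp4, -2.84 (adjusted p 0.000220), and Psmb9, -2.54 (adjusted p 0.000331), all from the authors' deposited table. Samhd1 lies, like Ifih1, among lower regions of chromosome 2: the 225 others within 1 Mb had a median of -0.82.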

How the data were processed

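ATAC-seq reads were mapped to GRCm38 (mm10), and the tools named are Bowtie2 2.4.1, SAMtools 1.10.2 and Genrich 0.6, per the submitters' processing notes. The authors deposited a log2 fold change (leukemic over non-leukemic) and a log2 average abundance per region, a reading of the latter column that rests on its place and range. The name csaw, of a method that counts reads in windows, stands in the title of the deposited table. The sources used here do not state its settings, the normalization, read filters, handling of reads that map to several paralogs, any shift for the transposase's cut, or whether a fold covers a whole region or its best window. The authors' deposited adjusted p-value differs from a Benjamini-Hochberg adjustment of their deposited p-value over all 160978 regions by at most 2.39e-15. The deposited more accessible, less accessible and unchanged lists, of 2002, 1961 and 19123 regions, equal an adjusted p under 0.001 with the matching sign, or over 0.9. Since nothing per library was used, sequencing depth is unknown and no interval could be set.

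Regions were assigned by their centres to the closest gene extent within 100 kb, among 49997 genes of RefSeq's GRCm38.p6 annotation; the farthest member lay 36.5 kb away, and 9 members tied with a gene outside the families. Coordinates are printed as deposited, and their counting base (0 or 1) is unknown. Clusters join family genes with gaps of at most 1 Mb. Named regions are every member under 0.001, the lowest adjusted p and both extremes of each cluster, and the most abundant gene-end region of each gene; others were named after their values were seen. Members and gene lists were chosen with earlier results of these data known, so no list was tested. Of 64 other pathway genes 59 were in the annotation, and of the 74 family genes 56 had a promoter window. Medians, counts and motif matches were computed with Python 3.11.15, pandas 2.3.3 and numpy 2.4.6. The assignment of regions to genes was tested on simulated data. Alternatives changed the threshold, the gene distance, the gene types, ties, abundance, the gene-end distance, the local window, the motif spacing, and the use of Ifih1. Some markers and pathway genes are not reported here.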

Additional observations from a re-analysis of the deposited data

How the results depend on the processing

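The single region that rose and the 0 that fell among 300 members became 16 and 23 at an adjusted p under 0.05. No region rose (0) when regions were kept only at or above the median abundance, or only where they overlapped a gene or the 1 kb around it, since the Gbp6 region meets neither condition. With protein-coding genes as the only candidates the set grew to 349 regions, of which 2 rose and 1 fell, the added ones being those nearest to Ifitm3 and Ifi205. Under a gene limit of 20 kb, ties to the shortest gene, a threshold of 0.0001 or without Ifih1, 1 rose and 0 fell. The median log2 fold change over members stayed below 0 in every alternative run, from -0.22 to -0.04. The median at gene ends moved from -0.22 to -0.036 with ends widened to 3 kb and was -0.22 at 500 bp; the cause was not tested. Cluster medians minus the median of other regions within 1 Mb turned sign with a 5 Mb window for Ifi44 (0.11 against -0.12), Rsad2 (-0.033 against 0.14) and Slfn (0.11 against -0.02). The other 12 clusters with at least 5 regions kept their sign. No paired analysis was possible because the comparison was used without its libraries, and no replicate was left out for that reason. The unknown composition of the non-leukemic side limits every fold and adjusted p.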
